A study of Mus musculus with 9 samples.

Results

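The genes described here are 8 clock output genes, that is, transcription factors and targets through which the circadian clock reaches other genes. They are Dbp, Tef, Hlf, Nfil3, Bhlhb2, Usp2, Wee1 and Por, listed by name for their known role in clock output; the list was drawn up with earlier results of these data known, and no level was used as a cut to enter it. They are 8 of the 15674 genes named on the arrays, each with 1 of 33012 probes. Bhlhb2 is the array's older symbol for Bhlhe40, also called Dec1. The samples were 9 pieces of jejunum, the middle part of the small intestine, from male mice of the outbred stock OF1 aged 7 weeks, 1 mouse per array. The mice belonged to generation 3 of families kept on feed B, feed K or feed G, with 3 mice per feed (mice 7, 8 and 10 on feed B, mice 1, 3 and 4 on feed K, mice 4, 8 and 11 on feed G). All were housed with 12 h of light and 12 h of darkness with free access to feed, and per the methods feed was withheld for some hours of the light phase before sampling. Per the methods, these arrays were made to study a custom maize diet. Which of the letters B, K and G stands for it, and what the feeds contain, was not given in the sources used here. None of the feeds is treated as a control. Per the labels and methods, the hour at which a mouse was sampled was not noted and not balanced over the feeds, so that feed and time of day cannot be told apart in any difference given below.

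In the circadian clock, Clock and Arntl (Bmal1) activate genes with an E-box in their promoter, and the period, cryptochrome and Rev-erb proteins feed back on this activation. Dbp, Tef and Hlf are the PAR bZIP factors, activators that bind the D-box, and Nfil3 (E4bp4) is a repressor that binds the same element. Bhlhe40 is a repressor that binds E-boxes, and the PAR bZIP factors drive genes of metabolism and detoxification in liver, kidney and intestine.

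Promoters of the RefSeq genes of GRCm38.p6, from 250 bases before to 50 bases after the transcription start, were searched on both strands for the letters of these elements. A promoter was held for 6 of the 8 genes (7 promoters, as Tef has a pair of start sites), and none for Bhlhe40 and Wee1. Tef was the gene with a match: the E-box CACGTG lay 127 bases before its upstream start and 138 bases before the other. CACGTG is found in 7.15% of all 32851 promoters of this length. The E-box variant CACGTT, found in 4.68% of promoters, and the D-box letters TTATGTAA or TTACGTAA, found in 1.06%, had no match in the 7 promoters. The windows around both matches are shown because they are the only such letters among the promoters searched for these genes, with CACGTG in capitals and the + strand, on which Tef is transcribed. They lie at chr15:81802506-81802591 and chr15:81811236-81811321.
Tef, upstream start: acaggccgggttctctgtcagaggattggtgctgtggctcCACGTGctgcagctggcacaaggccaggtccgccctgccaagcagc
Tef, downstream start: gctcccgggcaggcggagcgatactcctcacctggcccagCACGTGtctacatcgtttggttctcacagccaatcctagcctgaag

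Levels are given as quantile-normalized signal, which has no unit and compares 1 probe between mice but not different probes with each other. Detection means that the signal of a probe reached 3 times its noise, and the 9652 genes detected on at least 3 arrays were tested. The share of probes detected was 38.0% ± 5.08 (SD, n = 3) on feed B, 43.6% ± 3.46 on feed K and 47.1% ± 0.942 on feed G, so it was ordered like the means of most of the genes described here. Its part in their differences was not tested. In the jejunum of these mice 6 of 7 matched enterocyte markers were detected on every array, whereas the remaining marker, Akp3, was detected on none. The summed signal of the enterocyte markers was 1.85e+06 to 3.11e+06 on feed B, 2.47e+06 to 3.05e+06 on feed K and 2.32e+06 to 2.56e+06 on feed G. The summed signals of goblet cell, smooth muscle, T cell, B cell, adipocyte, erythrocyte and exocrine pancreas markers overlapped between the feeds.

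The arrays of 3 mice stood apart in markers of the ileum, the next part of the intestine. Fabp6, the ileal bile acid binding protein, had a signal of 57505 in mouse 7, 25.5 in mouse 8 and 234408 in mouse 10 on feed B. On feed K it was 484, 4667 and 3586, and on feed G 274, 499 and 746900, the last in mouse 11. Slc10a2, the ileal bile acid transporter, was also highest in mouse 10 of feed B (4228) and mouse 11 of feed G (6452), but at 705 in mouse 7 of feed B it was below mouse 4 of feed K (849), with 524 in mouse 8 of feed G. Mouse 7 of feed B thus stood apart in Fabp6 and not in Slc10a2. Fgf15, an ileal hormone, was detected in mouse 11 of feed G (1441) and on no other array. Fabp6 was detected on every array but that of mouse 8 of feed B. The 3 arrays with the highest Fabp6 are called those with ileal signal, and the others are not free of it. Because 2 of these 3 arrays make up most of feed B, the differences of the 8 genes are also given with all 3 left out, an alternative chosen after seeing the data. Feed B is then represented by mouse 8, which is assumed to vary like the mice of the other feeds.

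Dbp, a strongly rhythmic PAR bZIP factor in many tissues, had a normalized signal of 1510, 5626 and 1009 in mice 7, 8 and 10 of feed B. It was 6597, 9012 and 12150 in mice 1, 3 and 4 of feed K. It was 16297, 11231 and 6810 in mice 4, 8 and 11 of feed G. Every mouse on feeds K and G was above every mouse on feed B, while feeds K and G overlapped. The log2 difference from feed B was 2.13 (SE 0.62) for feed K, a 4.38-fold higher level, and 2.39 (SE 0.62) for feed G, a 5.26-fold higher level with a 95% interval of 1.95 to 14.2. Neither difference passed the adjustment over the 9652 genes (limma, adjusted p = 0.773 and 0.540, unadjusted p = 0.00874 and 0.00470). The lowest levels of feed B were those of mice 7 and 10, the arrays with ileal marker signal. Without the 3 such arrays the log2 difference was 0.67 (SE 0.42) for feed K and 1.27 (SE 0.45) for feed G.

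Tef, a second D-box activator of the PAR bZIP family, had a signal of 858, 1438 and 428 on feed B, 1419, 2086 and 3046 on feed K, and 3898, 3419 and 2988 on feed G, with the mice in the same order as above. Feed B and feed K overlapped through mouse 8 of feed B and mouse 1 of feed K, and every mouse of feed G was above every mouse of feed B. The means were ordered B, K, G, with a log2 difference of 1.36 (SE 0.45) for feed K over feed B and 2.08 (SE 0.45) for feed G over feed B. They did not pass the adjustment (limma, adjusted p = 0.773 and 0.417). Without the 3 arrays with ileal signal, these differences were 0.53 (SE 0.45) and 1.34 (SE 0.48).

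Hlf, the remaining PAR bZIP factor, was below the detection limit on all 3 arrays of feed B, where the file lists 80.9, 75.9 and 41.2. At such low signal-to-noise ratios the deposited signal equals its own standard deviation, so these values are not well above background and bound the level only. Hlf was 122, 185 and 222 on feed K, where mouse 1 was also not detected, and 553, 287 and 189 on feed G. A signal of 3 times that noise, on the scale of each feed B array, would be 378, 448 and 134. Against the mean of these limits, which lies above the mean of feed K, Hlf was at least 1.10-fold higher on feed G (limma fit to the listed values, adjusted p = 0.417), and no fold is given for feed K. Single mice of feeds K and G lay below the limits of mice 7 and 8 of feed B, so whether the feeds overlap in Hlf is not known. Hlf entered the test through its detection on feeds K and G, so a difference from feed B was built into its entry. The fitted difference between feeds G and B, taken against these undetected values and therefore no measured size, was 2.30 on the log2 scale with all arrays and 2.39 without the 3 arrays with ileal signal.

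Nfil3, the repressor that competes with these factors for the D-box, ran the other way. Its signal was 1113, 926 and 1197 on feed B, 760, 678 and 684 on feed K, and 505, 521 and 436 on feed G. No mouse of one feed overlapped with a mouse of another, in the order B above K above G, and Nfil3 was 1 of 4 such genes among 9556 (0.0419%). The opposite order without overlap, B below K below G, was found for 0.188% of genes and for none of the 8 genes described here. The log2 difference was -0.60 (SE 0.18) for feed K minus feed B, -1.14 (SE 0.18) for feed G minus feed B and -0.54 (SE 0.18) for feed G minus feed K. The level on feed B was thus 2.21-fold that on feed G. Its spread within feeds was a log2 SD of 0.15, against a median of 0.41 over the genes tested and 0.28 over those detected on all 9 arrays. The test over the 3 feeds gave Nfil3 the eighth smallest p of 9652 genes, which did not pass the adjustment (limma F test, unadjusted p = 0.000650, adjusted p = 0.652). With each array scaled to its median instead of quantile normalization, the differences from feed B were -0.21 (SE 0.33) for feed K and -0.58 (SE 0.33) for feed G, with unadjusted limma p of 0.550 and 0.117, while the median over all genes moved up to 0.41 and 0.53. With the scanner signal divided by its array's median, all 3 feeds overlapped in Nfil3, so the order without overlap holds for quantile-normalized levels only. An exact permutation test over all 280 splits of the 9 mice, also on quantile-normalized levels, gave p = 0.00357, the smallest it allows. Without the 3 arrays with ileal signal, the differences kept their direction at -0.39 (SE 0.22), -0.85 (SE 0.23) and -0.46 (SE 0.17).

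Bhlhb2, the E-box repressor, had a signal of 802, 996 and 1262 on feed B, 1236, 1093 and 2037 on feed K, and 1830, 1768 and 3875 on feed G. Feed G lay above feed B without overlap, feed K overlapped with both, and the highest level was in mouse 11 of feed G. The log2 difference between feeds G and B was 1.21 (SE 0.38; limma, adjusted p = 0.729) and became 0.85 (SE 0.42) without the 3 arrays with ileal signal, of which mouse 11 is one. For feed K minus feed B it was 0.48, with a 95% interval of -0.38 to 1.35, and 0.49 (SE 0.40) without those arrays.

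Usp2, a deubiquitinase whose transcript cycles in many tissues, had a signal of 904, 1494 and 834 on feed B, 2282, 2132 and 2649 on feed K, and 3548, 2998 and 1730 on feed G. Feed B lay below both other feeds without overlap. The log2 difference from feed B was 1.17 (SE 0.33) for feed K and 1.34 (SE 0.33) for feed G (limma, adjusted p = 0.767 and 0.472). Without the 3 arrays with ileal signal they were 0.65 (SE 0.25) and 1.13 (SE 0.27).

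Wee1, the kinase that delays entry into mitosis by phosphorylating Cdk1, had a signal of 236, 304.5 and 264 on feed B, 267, 545 and 392 on feed K, and 632, 849 and 355 on feed G. It was detected on 1 array of feed B and on all arrays of feeds K and G. In the listed values feed G was above feed B without overlap, with a fitted log2 difference of 1.11 (SE 0.37, limma, adjusted p = 0.784). Mice 7 and 8 of feed B were below the detection limit, so their values bound the level only. The size of this difference, and whether the feeds overlap in Wee1, are therefore not known. Leaving out the 3 arrays with ileal signal leaves feed B with mouse 8, in which Wee1 was not detected, so no size is given for that case.

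Por, the reductase that passes electrons to the microsomal cytochromes P450 and is a PAR bZIP target in liver and intestine, had a signal of 1362, 3530 and 2957 on feed B, 2963, 3556 and 5336 on feed K, and 2935, 2820 and 6603 on feed G. In these quantile-normalized levels all 3 feeds overlapped, and the highest level was again in mouse 11 of feed G. With the scanner signal divided by its array's median, feed B lay below both other feeds in Por without overlap. That scaling raised the share of all genes above 0 to 83.3% for feed K over feed B and 88.3% for feed G over feed B. On quantile-normalized levels the log2 difference between feeds G and B was 0.65, with a 95% interval of -0.42 to 1.71. It turned to -0.30 (SE 0.40) without the 3 arrays with ileal signal. With each array scaled to its median it was 1.21 (SE 0.49, limma, unadjusted p = 0.0367, adjusted p = 0.266). The median over all genes was then 0.53, and Por lay 0.68 above it, against 0.59 with quantile normalization. Between feeds G and K it was -0.01 (SE 0.47), with a 95% interval of -1.08 to 1.05, and -0.41 (SE 0.29) without those arrays.

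**Figure D1:**
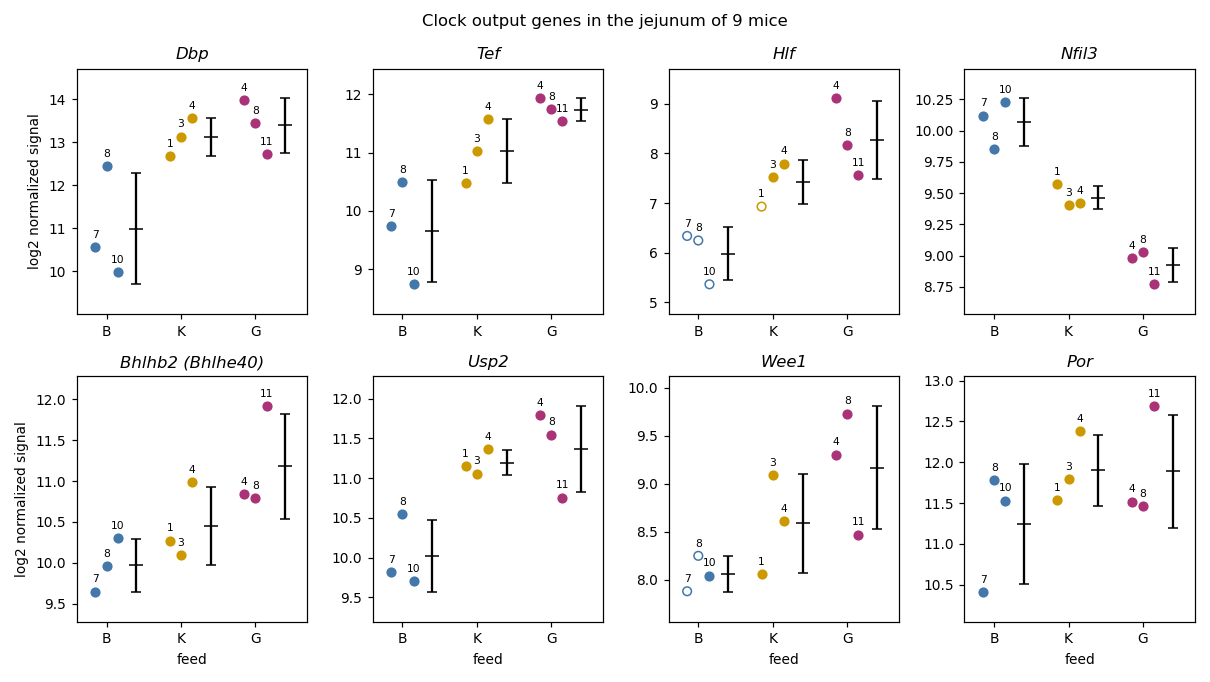
Normalized signal of the 8 genes on a log2 axis that differs between panels, 1 point per mouse, numbered as in the labels; open points were below the detection limit, and the bar beside each feed is its mean with 1 SD (n = 3). Nfil3 separates the feeds in the order B, K, G without overlap, the points of Dbp and Usp2 on feed B lie below all others, and mouse 11 of feed G is the highest for Bhlhb2 and Por.

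Counted together, 7 of the 8 genes had an unadjusted p below 0.05 in the test over the 3 feeds, Por being the exception, compared with 5.37% of all genes tested. By the exact permutation test these were 5 of 8, compared with 5.09%. With the adjustment over all genes, limma called 0 of 9652 genes in this test (518 at an unadjusted p below 0.05) and the exact test 0 of 9556. Hlf and Wee1 reached the detection filter through the feeds where they were higher. Among the other 6 genes, all detected on every array, 5 had an unadjusted p below 0.05 in the limma test and 4 in the exact test. These genes move together over the mice, so the counts are not over independent genes. In a piece of intestinal wall, fewer cells of a type and less RNA per cell cannot be told apart.

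Between feeds K and B, 4 genes (Dbp, Tef, Hlf and Usp2) were higher on feed K at an unadjusted p below 0.05, compared with 4.34% of genes, and 1 (Nfil3) was lower, compared with 1.97%. Without overlap between the feeds in the listed values, 3 genes (Dbp, Hlf and Usp2) were higher on feed K, compared with 6.26%, and Nfil3 was lower, compared with 3.68%. In the mean, 7 of the 8 genes were higher on feed K, compared with 56.9% of genes, and 1 was lower, compared with 43.1%. The median log2 difference of the 8 genes was 0.92, against 0.05 over all genes tested. Hlf and Wee1 reached the filter through feeds K and G; among the 6 genes detected on every array, 3 were higher and 1 lower by p, and 2 were higher and 1 lower without overlap. Without mouse 8 of feed B, 7 of the 8 genes did not overlap, compared with 24.4% of genes, and without mouse 1 of feed K 7 did not, compared with 15.3%. With all mice 4 of the 8 did not, compared with 9.94%. When the 3 arrays with ileal signal were left out, Usp2 was the 1 gene of the 8 with an unadjusted p below 0.05, compared with 13.3% of genes, which is near the background, and limma called 102 of 8983 genes after adjustment, none of them among the 8.

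Between feeds G and B, 6 genes were higher on feed G at an unadjusted p below 0.05, all but Por and Nfil3, compared with 3.84% of genes. Nfil3 was lower, compared with 1.9%. In the listed values the same 6 genes were higher without overlap between the feeds, compared with 6.3%, and Nfil3 was lower without overlap, compared with 4.65%. Among the 6 genes detected on every array, 4 were higher and 1 was lower, both by p and without overlap. In the mean, 7 of the 8 genes were higher on feed G, compared with 57.1% of genes, and 1 was lower, compared with 42.9%. The median log2 difference of the 8 genes was 1.28, against 0.06 over all genes tested. These differences share the 3 mice of feed B with those of feed K over feed B, so the comparisons are not independent. Once the 3 arrays with ileal signal were left out, 5 genes were higher (Hlf and Wee1 among them, against values below detection) and Nfil3 lower at an unadjusted p below 0.05, with Bhlhb2 no longer among them, compared with 13.5% of genes in either direction, and limma called 0 of 8983 genes after adjustment (1217 at an unadjusted p below 0.05).

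Between feeds G and K, no gene of the 8 was higher at an unadjusted p below 0.05, compared with 2.14% of genes, and Nfil3 was lower (limma, unadjusted p = 0.0163, adjusted p = 0.960), compared with 2.39%. No gene was higher without overlap, compared with 6.31%, and Nfil3 was lower without overlap, compared with 7.36%. In the mean, 6 of the 8 genes were higher on feed G than on feed K, compared with 49.1% of genes, and 2 (Nfil3 and Por) were lower, compared with 50.9%. The differences of the PAR bZIP factors were 0.26 (SE 0.62) for Dbp, 0.71 (SE 0.45) for Tef and 0.86 (SE 0.45) for Hlf on the log2 scale. Their 95% intervals all included 0, and their upper ends lay at 3.24-fold, 3.35-fold and 3.69-fold. With the 3 arrays with ileal signal left out these differences were 0.59 (SE 0.33), 0.81 (SE 0.35) and 1.22 (SE 0.40), and Hlf and Wee1 were higher and Nfil3 lower at an unadjusted p below 0.05, compared with 7% of genes (limma, adjusted p = 0.702 for Hlf and 0.710 for the others). Of the 8 genes, 6 had means in the order B below K below G, compared with 20% of genes, but neighbours in this order did not differ beyond their spread after adjustment. Without mouse 11 of feed G, 6 of the 8 genes did not overlap between feeds G and K, compared with 26.1% of genes. Without mouse 4 of feed K 4 did not, compared with 23.5%, and with all mice 1 did not, compared with 13.7%.

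**Figure D2:**
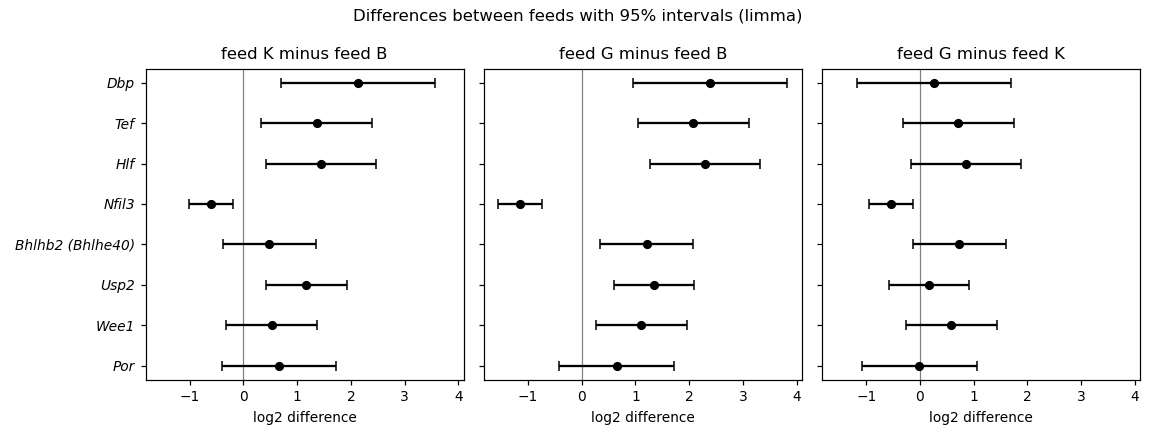
Log2 difference of each gene between pairs of feeds from limma, with its 95% interval; the grey line marks no difference. Intervals for feed G minus feed B lie above 0 for 6 genes, below 0 for Nfil3 and across 0 for Por, and before adjustment over all genes the intervals between feeds G and K leave out 0 for Nfil3. Against feed B, the intervals of Hlf and Wee1 rest on feed B levels below the detection limit and give no measured size. For Wee1 these are the levels of mice 7 and 8.

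The 8 genes varied more between mice than most genes. The ratio of the highest to the lowest mouse was 16.2-fold for Dbp, 13.4-fold for Hlf, 9.10-fold for Tef, 4.85-fold for Por, 4.83-fold for Bhlhb2, 4.25-fold for Usp2, 3.60-fold for Wee1 and 2.74-fold for Nfil3. The value for Hlf rests on levels below the detection limit, and so does the lowest level of Wee1, in mouse 7 of feed B. The median log2 SD over the 9 mice was 0.71 for the 8 genes and 0.42 for all genes tested, and the median SD within feeds was 0.55 and 0.41. Within feed B, mouse 8 had the highest level of Dbp, Tef, Usp2 and Por. Within feed K, mouse 4 was highest and mouse 1 lowest for Dbp, Tef and Hlf. Within feed G, mouse 4 was highest and mouse 11 lowest for Dbp, Tef and Hlf, and Usp2 had the same order.

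Over the 9 mice, all 28 pairs of the 8 genes were compared on log2 levels. Exact permutation p-values (two-sided) were taken over 362880 orders of the mice, with adjustment over the 28 pairs. The orders mixed mice of different feeds, so these p-values do not separate a shared difference between feeds from a relation within feeds. Hlf and Nfil3, for example, had r = -0.867 over the 9 mice and -0.120 after subtraction of the feed means. Dbp and Usp2 had the highest correlation, with Pearson r = 0.966 (permutation p = 3.58e-05, adjusted p = 0.00100) and Spearman rho = 0.933 (permutation p = 0.000750, adjusted p = 0.00525). Dbp and Tef had r = 0.947 (permutation p = 0.000190, adjusted p = 0.00116) and rho = 0.950 (permutation p = 0.000353, adjusted p = 0.00329). Tef and Hlf had r = 0.934 (permutation p = 8.54e-05, adjusted p = 0.00116) and rho = 0.950 (permutation p = 0.000353, adjusted p = 0.00329). The PAR bZIP factors and Usp2 thus followed each other from mouse to mouse, with the limit that Hlf was below detection on feed B. With the 2 mice farthest from the median of Dbp left out, which were mice 7 and 10 of feed B, r was 0.920 for Dbp and Usp2 and 0.819 for Dbp and Tef. After subtraction of the feed means, r was 0.885 and 0.893, so these relations were also seen within feeds.

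Nfil3 had a negative correlation with each of the other 7 genes, and all 21 pairs among those 7 had a positive one. Nfil3 and Tef had r = -0.915 (permutation p = 0.000193, adjusted p = 0.00116) and rho = -0.850 (permutation p = 0.00607, adjusted p = 0.0155), and r stayed at -0.830 with mice 7 and 10 of feed B left out. Nfil3 and Dbp had r = -0.822 (permutation p = 0.00483, adjusted p = 0.0150) and rho = -0.783 (permutation p = 0.0172, adjusted p = 0.0344), but r was -0.470 without the same 2 mice. With the 3 arrays with ileal signal left out, r was -0.888 for Nfil3 and Dbp and -0.899 for Nfil3 and Tef over 6 mice. After subtraction of the feed means, r for Nfil3 ranged from -0.68 with Tef to 0.08 with Wee1.

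Bhlhb2 and Por, the genes that were highest in mouse 11 of feed G, had a correlation of r = 0.776 (permutation p = 0.0190, adjusted p = 0.0355) and rho = 0.450 (permutation p = 0.230, adjusted p = 0.292). It rested on mouse 4 of feed K and mouse 11 of feed G, without which r was 0.437, and was 0.217 without the 3 arrays with ileal signal. Bhlhb2 had r = 0.471 with Dbp over the 9 mice and 0.854 over the 6 mice left without those arrays. In all, 16 of 28 pairs had an adjusted p below 0.05 by Pearson's r and 14 by Spearman's rho, with feed not held fixed in the permutations. After subtraction of the feed means, r was above 0 for 13 of the 21 pairs without Nfil3.

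**Figure D3:**
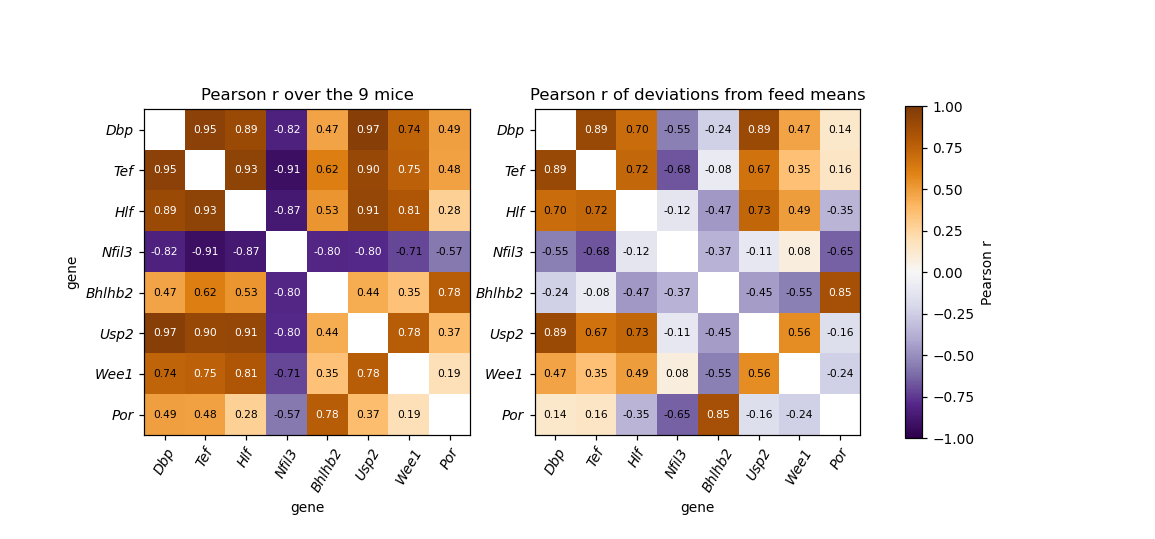
Pearson correlation of log2 levels for each pair of the 8 genes, over the 9 mice (left) and after subtraction of each feed's mean (right), on a colour scale from -1 to 1. Dbp, Tef, Hlf and Usp2 form a block of high values in both panels, the row of Nfil3 is negative on the left, and Bhlhb2 with Por reaches 0.85 on the right.

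**Figure D4:**
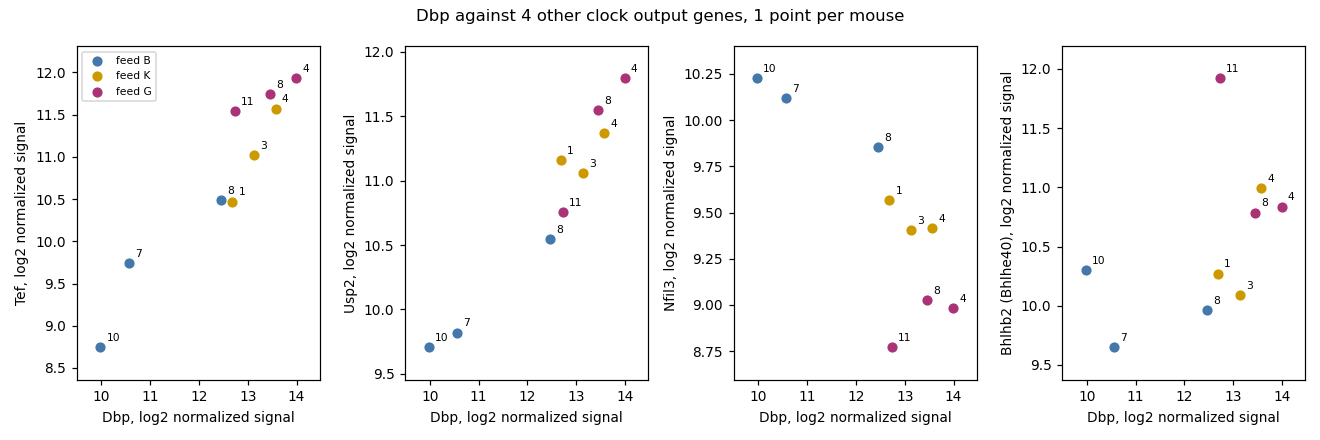
Log2 level of Tef, Usp2, Nfil3 and Bhlhb2 against that of Dbp, 1 point per mouse, coloured by feed and numbered by mouse. Tef and Usp2 are higher and Nfil3 is lower in mice with more Dbp, and mouse 11 of feed G lies far above the other mice for Bhlhb2.

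The genes with the pattern most like each member were taken among 5886 other genes detected on all 9 arrays, by Pearson r over the 9 mice, as a description without a test. For Dbp these were Usp2 (0.966), Dnalc4, a dynein light chain (0.965), and Ciz1 (0.949). The genes most opposite to Dbp were Kcnj8, a subunit of ATP-sensitive potassium channels (-0.941), and Slc5a8, a transporter of short-chain fatty acids (-0.936). For Tef they were Nr1d2, the nuclear receptor Rev-erb beta of the clock (0.973), Faah, fatty acid amide hydrolase (0.961), and Dbp (0.947), against G1p2 (-0.947) and Kcnj8 (-0.929). Usp2 shared Dnalc4 (0.977), Ciz1 (0.975) and Dbp (0.966), and was opposite to Abcg2, an efflux transporter (-0.936), and Slc5a8 (-0.931). The lists of Dbp and Usp2 thus held the same genes at both ends, apart from Kcnj8 and Abcg2.

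The other genes detected throughout had other neighbours. For Nfil3 they were Ier5 (0.960), Tmc5 (0.940) and Ssr2 (0.933), against 2310044G17Rik (-0.977) and Sec15 (-0.967). For Bhlhb2 they were Abcb1a, the efflux pump P-glycoprotein (0.959), 5033406L14Rik (0.946) and Egln1, a hypoxia-sensing prolyl hydroxylase (0.923), against Pdzk1 (-0.955) and Ercc3 (-0.901). For Por they were Nalp9c (0.955), Calml4 (0.935) and Slc17a5 (0.933), against Mmp14 (-0.917) and Cxcl12 (-0.916).

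Of the core clock loop, 13 of 17 listed genes were tested. Of these, 5 had an unadjusted p below 0.05 over the feeds, compared with 5.37% of all genes, but none passed the adjustment. Between feeds G and B, 4 were higher and 1 lower at an unadjusted p below 0.05, compared with 3.84% and 1.9% of all genes. The median log2 difference of the list was 0.01, against 0.06 over all genes. Arntl, the partner of Clock, had a signal of 919, 815 and 894 on feed B, 696, 389 and 506 on feed K, and 203, 396 and 102 on feed G. Its log2 difference for feed G minus feed B was -2.12 (SE 0.45), in the direction of Nfil3 and opposite to Dbp, and was -1.52 (SE 0.53) without the 3 arrays with ileal signal. Nr1d2 was 928, 1298 and 709 on feed B, 1634, 1737 and 2061 on feed K, and 2075, 2387 and 2107 on feed G, a log2 difference of 1.20 (SE 0.24) between feeds G and B, and of 0.78 (SE 0.27) without those 3 arrays. Per2, a period gene and negative limb of the loop, was 394 in mouse 8 of feed B and not detected in mice 7 and 10, and was 568, 801 and 565 on feed K and 1549, 657 and 2265 on feed G. Nr1d1 (Rev-erb alpha) differed from the others in that it was highest on feed K, at 2603, 4433 and 2766, compared with 1577, 1968 and 2092 on feed B and 1684, 1604 and 1894 on feed G.

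Of 14 D-box targets known from liver, kidney or gut, 10 were tested. Per2, which is also in the core clock list, was the 1 with an unadjusted p below 0.05 over the feeds, compared with 5.37% of all genes. All 10 had a higher mean on feed K than on feed B, compared with 56.9% of all genes, with a median log2 difference of 0.47, against 0.05. On feed G 7 had a higher mean than on feed B, compared with 57.1%, with a median of 0.35, against 0.06. Of 10 other clock-controlled genes 6 were tested, and 3 had an unadjusted p below 0.05, compared with 5.37% of all genes. Slc5a1, the sodium-glucose cotransporter of the enterocyte, was 33547, 47774 and 49487 on feed B, 99226, 92297 and 92121 on feed K, and 104919, 100437 and 54111 on feed G, a log2 difference of 1.14 (SE 0.29) for feed K over feed B, and of 0.98 (SE 0.21) without the 3 arrays with ileal signal. Ccrn4l (Noct), a clock-driven phosphatase once known as a deadenylase, differed by 0.88 (SE 0.24) between feeds G and B, and Dsip1 (Tsc22d3), a glucocorticoid-induced gene, by 0.90 (SE 0.31). Without the 3 arrays these were 0.56 (SE 0.25) and 0.76 (SE 0.28). None of the 16 genes tested in these lists passed the adjustment.

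Around Wee1, 7 of 10 genes of mitotic entry were tested, and 1 had an unadjusted p below 0.05, compared with 5.37% of all genes. This was Pkmyt1 (AW209059 on the array), the related kinase of Cdk1. It was not detected in mice 7 and 8 of feed B, was 561 in mouse 10, and was 942, 711 and 794 on feed K and 515, 516 and 422 on feed G (limma F test, adjusted p = 0.894). Around Por, 12 of 14 electron transfer partners were tested and 0 had an unadjusted p below 0.05 over the feeds in limma, compared with 5.37% of all genes. Their median log2 difference was 0.12 for feed K over feed B, against 0.05 over all genes, and -0.04 for feed G over feed B, against 0.06. Of 6 glucocorticoid-induced genes, a list kept because these hormones also cycle over the day, 4 were tested. Fkbp5 and Dsip1 had an unadjusted p below 0.05, compared with 5.37% of all genes, and Dsip1 is also in the list of other clock-controlled genes. Fkbp5 was detected on the 3 arrays of feed G alone, with 334, 634 and 991, so it entered the test through feed G and a difference was built into its entry.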

How the data were processed

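The authors deposited for each array the scanner's signal intensity per spot, background-corrected and spatially normalized, with its signal-to-noise ratio (a score) and quality flag, and a series table of assay-normalized signal. Flags above 5000 mark failed spots, which were dropped. Quantile normalization brought the 9 arrays to 1 distribution, and log2 values of probes with the same symbol were averaged. Feeds were compared with limma 3.58.1 (R 4.3.3; lmFit and eBayes with all 9 arrays in 1 fit) over 9652 genes detected (signal-to-noise ratio of at least 3) on at least 3 arrays, with Benjamini-Hochberg adjustment at 0.05. Permutation tests and promoter searches used Python 3.11.15 with scipy 1.17.1. Quantile normalization and fits were tested on simulated data. The members, the lists and the tests were chosen with earlier results of these data known. Genes named beside the 8 are the 3 most and 2 least correlated with each member detected on all arrays, and from each list up to 4 genes with the smallest unadjusted F test p below 0.05; ileal markers were singled out after seeing their values. Locations are: Dbp chr7:45705100-45710203, Tef chr15:81802673-81826863, Hlf chr11:90336535-90390917, Nfil3 chr13:52967209-52982878, Bhlhe40 chr6:108660629-108666925, Usp2 chr9:44067021-44095627, Wee1 chr7:110122059-110143299 and Por chr5:135670040-135735326 (GRCm38.p6). Probe accessions matched RefSeq for 7 of the 8, and Hlf by symbol. The number of arrays limits the precision. The alternatives tried were scaling to the median, the deposited series table, 1 probe (the brightest) per gene, flagged spots kept, a floor at percentile 5, other detection filters, other F tests and leaving out arrays.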

Additional observations from a re-analysis of the deposited data

How the results depend on the processing

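Over 24 differences of the 8 genes between pairs of feeds, 418 of 426 values under the alternatives kept their direction, and none passed the adjusted threshold (lowest adjusted p 0.123). The exceptions in direction were Por between feeds G and K (0.11 with median scaling, 0.16 with the series table, -0.41 to 0.23 when single mice were left out), Por between feeds G and B (-0.30 without the 3 arrays with ileal signal), and Dbp and Usp2 between feeds G and K without mouse 4 of feed G (-0.037 for Dbp and -0.042 for Usp2; ranges over single mice left out -0.037 to 0.59 and -0.042 to 0.48). The cause was not tested. Of all genes, 1 passed the adjustment in the test over feeds among genes detected on all 9 arrays or with the unmoderated F test, and 0 to 3 with single mice left out. For feeds K and B this was 0 to 10, and 102 without the 3 arrays with ileal signal; for feeds G and B it was 1 among genes detected on all 9 arrays and 0 to 3 with single mice left out. The upper ends of these ranges over single mice came without mouse 10 of feed B. Over single mice left out, genes of the 8 without overlap numbered 4 to 7 between feeds K and B, compared with 9.94% to 25.9% of all genes. Between feeds G and K they numbered 1 to 6, compared with 13.7% to 29.7%. Without the 3 arrays with ileal signal they numbered 6 between feeds G and K, compared with 26.1%. With median scaling or the series table they numbered 6 between feeds K and B and 2 between feeds G and K. Shares over all genes were not computed for these scalings. Between feeds G and B they stayed at 7 with median scaling, with Por in place of Nfil3. Adjusted pairs were 10 with median scaling and 6 over the 6 mice left without the 3 arrays highest in Fabp6, where fewer mice were used, instead of 16. Unadjusted calls in the test over feeds went from 518 to 1075 with median scaling, 896 with no filter and 1136 without the 3 arrays with ileal signal. Between feeds K and B they were 609, against 1230 with median scaling, 987 with no filter and 352 among genes detected on all 9 arrays. Between feeds G and B they were 554, against 1798, 976 and 356, and between feeds G and K 438, against 672 with no filter. Single mice left out gave 382 to 964, 394 to 1093, 419 to 1038 and 282 to 593 for these 4 counts, the highest of the former 3 without mouse 10 of feed B, and leaving out the 3 arrays with ileal signal gave 1196 between feeds K and B and 1217 between feeds G and B. Of the 8 genes, 5 had an unadjusted p below 0.05 between feeds K and B, where 609 of 9652 genes did, and 3 with the series table, again with 609 genes. Between feeds G and K 1 of the 8 did (438 genes), with 0 to 2 over single mice left out (282 to 593 genes) and 0 with the series table (350 genes). Over the feeds 7 did, compared with 5.37% of genes. Without the 3 arrays with ileal signal feed B holds 1 mouse, so no count of the 8 is given here for that case. Fewer of the 8 then stayed below 0.05 between feeds K and B and over the feeds, and more between feeds G and K. Median scaling moved the median of all genes to 0.41 for feed K over feed B and 0.53 for feed G over feed B, and raised the share of genes above 0 from 56.9% to 83.3% and from 57.1% to 88.3%. With it Nfil3 was -0.58 between feeds G and B and -0.21 between feeds K and B, against -1.14 and -0.60, with unadjusted limma p of 0.117 and 0.550, so neither stayed below 0.05. Relative to the shifted median, Nfil3 was -1.11 and Dbp 2.40 between feeds G and B. No paired analysis was possible because the feeds share fewer than 2 mouse numbers, which only name the mice.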
